A study of Mus musculus with 4 samples.

Results

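Igf2, Cdkn1c, Dlk1, Igf2r and Ndn are 5 imprinted mouse genes, and reduced representation bisulfite sequencing gave their CpG methylation in embryonic stem (ES) cells without and with Naa10. Cytosines were taken by position in the mouse build mm9. The bounds were chr7:149834000-149858000 for Igf2, chr7:150643000-150649000 for Cdkn1c and chr12:110688000-110700000 for Dlk1. They were chr17:12960000-12965000 for the promoter of Igf2r and chr7:69490000-69497000 for Ndn. Of 1170 listed cytosines in these 5 regions, 722 had 5 or more calls in every library, out of 2468166 such cytosines on all nuclear chromosomes. They fell into 329 cytosines at Igf2, 139 at Cdkn1c, 147 at Dlk1, 76 at Igf2r and 31 at Ndn.

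The libraries came from Naa10 knockout (KO) ES cells, with 2 libraries, and from wild-type (WT) ES cells, also with 2. Naa10 is the X-linked gene of the catalytic subunit of an N-terminal acetyltransferase. Cells of both genotypes were grown in N2B27 medium with LIF, the Mek inhibitor PD325901 and the Gsk3 inhibitor Chir99021 on irradiated feeder fibroblasts, and then for 5 passages without feeders. Strain, sex, and whether a genotype is 1 clone or line are not given in the labels, so p-values measure the spread between these libraries only, which may be technical. Total calls were 68929594 and 70594987 in the KO libraries and 79540412 and 68586396 in the WT libraries. Over the 2468166 cytosines, each weighing the same, the mean level was 9.57% in KO and 33.0% in WT, so lower levels in KO are the background of every result below. Bisulfite data do not show the state of Naa10 itself, and the genotype labels were not checked here.

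Imprinted genes are expressed from 1 parental copy. A primary methylation mark is laid down in the egg or sperm at a control region of each domain, and secondary methylation is added to some genes of the domain after fertilisation, under the influence of the primary mark. Igf2 (a fetal growth factor), Dlk1 (a transmembrane protein related to Notch ligands) and Ndn (necdin, of the MAGE family, known for its role in neurons) are expressed from the paternal copy. Igf2r (the receptor that takes up and degrades Igf2) and Cdkn1c (the cell cycle inhibitor p57) are expressed from the maternal copy. The 2 parental copies cannot be told apart in these data, and a level near the middle of the range can come from 1 methylated copy or from a mixture of cells.

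RefSeq promoter sequences (build GRCm38.p6) helped to place the start sites. The sequence table held 4 of the 5 members, all but Cdkn1c, with 4 start sites for Igf2. A sequence of 300 bases, 250 before and 50 after the start, was set against the listed cytosine positions, which have to fall on its CpGs. For Igf2r all 54 listed cytosines of chr17:12962523-12962822 fell on CpGs, and the next best place in the region had 1. For Igf2 an upstream start was placed at chr7:149844660-149844959 with 23 cytosines on CpGs (next best 3), and a downstream start at chr7:149843352-149843651 with 4 (next best 2). The distance between these Igf2 starts is the same in the RefSeq table. The starts of Dlk1 and Ndn and the other starts of Igf2 met no such place. The 3 placed promoters are shown 5′ to 3′ on the strand of the gene, which is the minus strand for each, because they differ in CpG number and in level. Capitals mark the CpGs with 5 or more calls in every library.
Igf2r: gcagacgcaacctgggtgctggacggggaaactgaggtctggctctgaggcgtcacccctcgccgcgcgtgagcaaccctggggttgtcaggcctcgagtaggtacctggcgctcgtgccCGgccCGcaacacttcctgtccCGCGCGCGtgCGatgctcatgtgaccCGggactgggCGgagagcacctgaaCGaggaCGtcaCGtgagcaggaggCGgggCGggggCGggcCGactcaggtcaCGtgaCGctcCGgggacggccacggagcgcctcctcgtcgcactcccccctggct
Igf2 downstream start: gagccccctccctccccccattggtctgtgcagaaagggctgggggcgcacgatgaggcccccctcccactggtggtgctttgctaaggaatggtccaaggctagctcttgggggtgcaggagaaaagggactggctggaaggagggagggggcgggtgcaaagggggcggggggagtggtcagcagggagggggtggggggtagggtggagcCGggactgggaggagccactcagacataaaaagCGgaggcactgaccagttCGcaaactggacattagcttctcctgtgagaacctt
Igf2 upstream start: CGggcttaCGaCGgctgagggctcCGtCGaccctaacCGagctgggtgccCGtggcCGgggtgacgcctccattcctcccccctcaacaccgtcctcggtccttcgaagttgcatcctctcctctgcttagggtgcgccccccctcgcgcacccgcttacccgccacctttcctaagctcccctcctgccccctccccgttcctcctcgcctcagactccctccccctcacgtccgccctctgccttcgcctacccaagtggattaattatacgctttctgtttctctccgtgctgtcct

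The Igf2r promoter holds 34 CpGs, 19 of them measured. The Igf2 downstream promoter holds 7 with 3 measured, and the upstream one 24 with 8 measured. Of 32851 promoters of this length in the table, 7.73% hold 34 or more CpGs, 20% hold 24 or more and 52.1% hold 7 or more. The site that MspI cuts, CCGG, which reads the same on both strands and contains a CpG, occurs 3 times in the Igf2r promoter and once in each Igf2 promoter, and at least 1 is found in 52.8% of promoters.

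All 5 regions had a lower summed level in both KO libraries than in both WT libraries. As background, 86.5% of all 1 kb windows of the genome passed the edgeR test described below as lower in KO. That share is by test with no minimum difference, and not by overlap of libraries. Igf2 had 7.94% and 4.63% of calls methylated in KO, against 16.1% and 15.4% in WT. Cdkn1c had 2.91% and 1.10% in KO, against 7.73% and 6.58% in WT. Dlk1 had 3.73% and 2.54% in KO, against 11.0% and 10.4% in WT. The groups did not overlap in these genes, and KO replicate 1 was the higher KO library in each. The Igf2r promoter region had 0.122% and 0.184% in KO, against 2.01% and 2.45% in WT. Ndn had 6.73% and 2.97% in KO, against 30.8% and 28.4% in WT. As means ± SD (n = 2 libraries each), Igf2 had 6.28% ± 2.34 in KO and 15.8% ± 0.470 in WT, and Ndn had 4.85% ± 2.66 in KO and 29.6% ± 1.72 in WT. Igf2r was thus close to unmethylated in both genotypes, and Ndn had the highest WT level. Counting error alone (95% Wilson intervals) was at most ±1.20 points for the first 4 regions, and up to ±5.80 points for Ndn, where a library held only 208 to 438 calls.

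**Figure D1:**
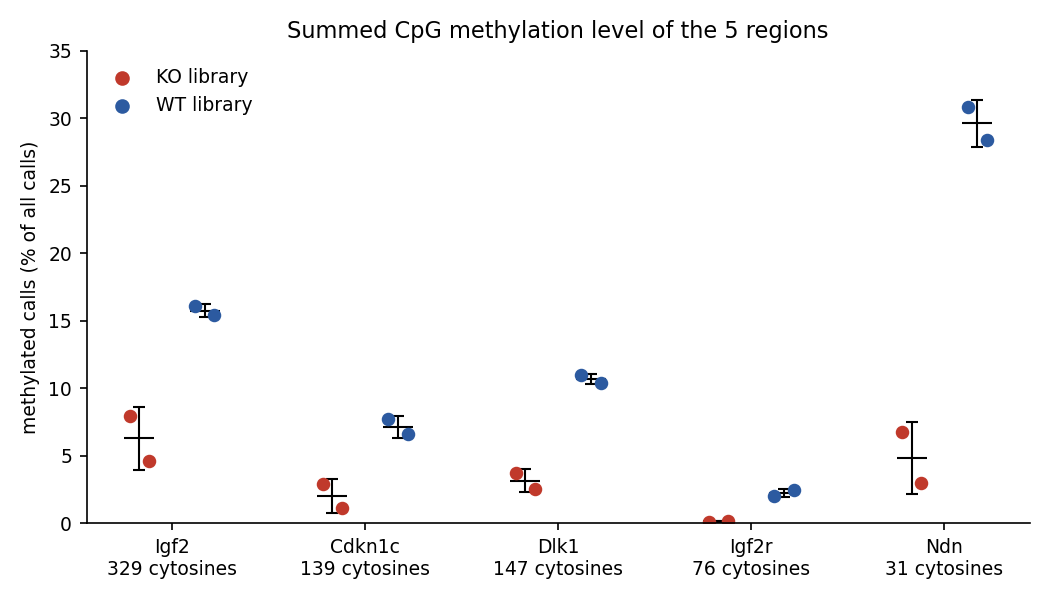
Share of calls read as methylated, summed over each region, for every library (dots, KO left of WT) with the mean and SD of the 2 libraries of a genotype. Both KO dots lie below both WT dots in each region, from a KO mean of 0.153% against a WT mean of 2.23% at Igf2r to 4.85% against 29.6% at Ndn. Of all 1 kb windows of the genome, 86.5% passed the edgeR test as lower in KO with no minimum difference.

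The differences of group means, KO minus WT, were -9.47 percentage points at Igf2, -5.15 at Cdkn1c, -7.55 at Dlk1, -2.08 at Igf2r and -24.8 at Ndn. The counts of both call types went into edgeR's quasi-likelihood test, and after Benjamini-Hochberg adjustment over all windows of the genome the adjusted p-values were 1.22e-05, 5.83e-07, 8.54e-06, 3.96e-09 and 1.23e-07 in the same order of genes. A call also needed a difference of at least 10 points, which only Ndn reached. An exact permutation test (two-sided) over the 4 libraries gave p = 0.333 in each region, the smallest value that 2 against 2 libraries allow. The KO level was 39.9% of the WT level at Igf2, 28.0% at Cdkn1c, 29.3% at Dlk1, 6.86% at Igf2r and 16.4% at Ndn. With a minimum of 10 calls per cytosine the Dlk1 difference was -4.24 points. That minimum left out every cytosine of chr12:110698001-110699000, the Dlk1 window with the highest WT level, so the 2 values cover unlike sites. With each cytosine weighing the same the Ndn difference was -15.7. On the logit scale the changes were -1.06 at Igf2, -1.43 at Cdkn1c, -1.32 at Dlk1, -2.54 at Igf2r and -2.16 at Ndn. The library-wide shift was -3.10, over windows whose mean level of the 4 libraries lay between 10 and 90%. Such sums mix CpG-dense stretches with their flanks, which are taken apart next.

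Inside the regions, WT levels were at most 5.26% in windows with 40 or more measured cytosines, and ran up to 95.5% in windows with 3 to 39. The number measured depends on coverage as well as on CpG density. Windows of 1 kb were tested where they held 3 or more cytosines. Of 20 such windows in the 5 regions, the edgeR test called 9 lower in KO and called 0 higher, against 79.9% of all 155252 windows called lower and 0.00386% called higher. With no minimum difference 15 of the 20 passed the test, all of them lower, against a background of 86.5%. The share called followed the number of cytosines in the window, as it did elsewhere. Of 9 windows with 3 to 19 cytosines 8 were called (91.2% of all such windows), of 4 windows with 20 to 39 cytosines 1 was called (45.1%), and of 7 windows with 40 or more 0 were called (4.69%). The median difference was -7.06 points over the 20 windows and -53.6 over all windows, and the median WT level was 9.04% over the 20 and 80.4% over all. Relative to the library-wide shift, which limma took out by centring each library, the test called 0 of the 20 lower than the shift and 11 higher, and of all 155252 windows it called 10299 lower and 46683 higher than the shift. The shift was taken over windows whose mean level of all libraries, KO and WT, lay between 10 and 90%. Of the 20 windows, 10 had a WT level below 10%. Among all windows below 10% in WT the mean KO level was 38.1% of the mean WT level, against 21.9 to 33.2% in the higher classes.

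**Figure D2:**
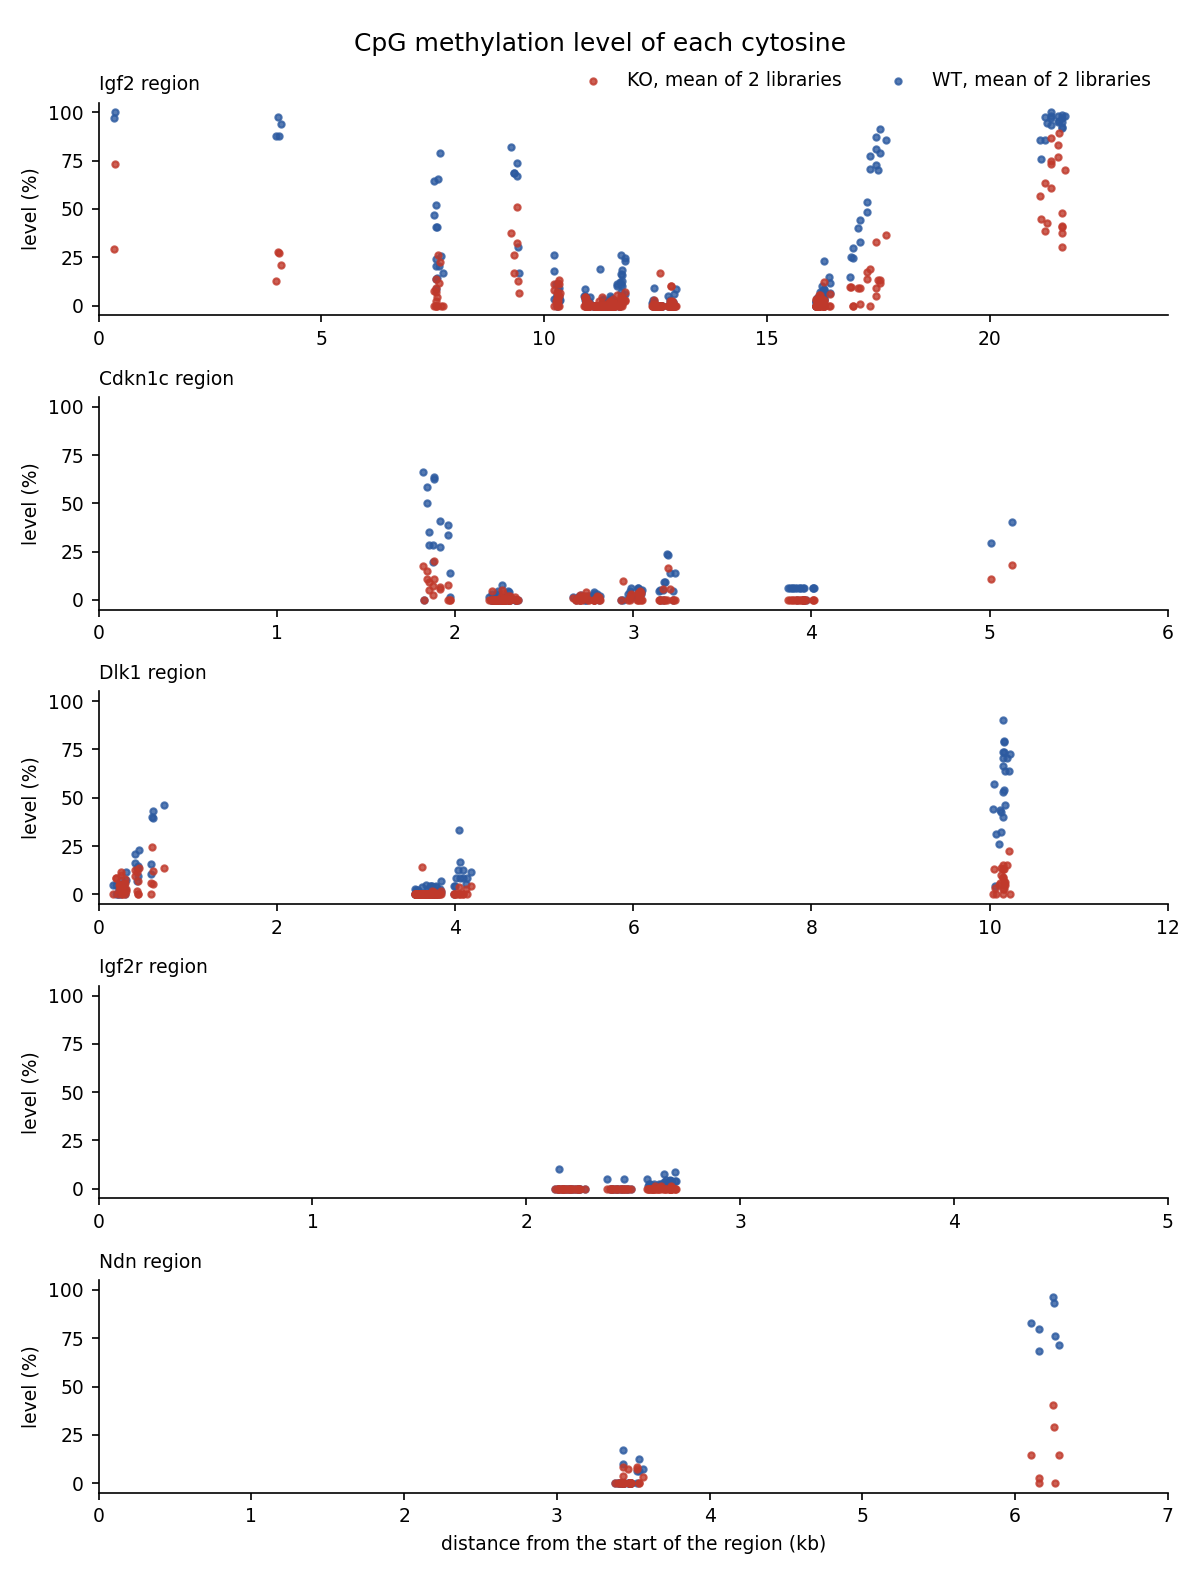
Level of each of the 722 cytosines (mean of the 2 libraries of a genotype) against the distance from the start of its region in kb. Most stretches of many cytosines lie near 0 in both genotypes, and many of the cytosines beside them are high in WT (blue) and lower in KO (red). The stretch of 23 cytosines near the end of Dlk1 is methylated in WT as well.

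At the growth factor gene Igf2, 9 windows were tested and 5 were called. In the window chr7:149838001-149839000, downstream of both placed starts, the level was 32.5% and 18.0% in KO, against 95.2% and 90.8% in WT, from 3 cytosines (adjusted p = 1.68e-15, edgeR). The window chr7:149841001-149842000 had 10.6% and 5.17% in KO, against 38.3% and 32.3% in WT, over 15 cytosines (adjusted p = 5.42e-06, edgeR). The window chr7:149843001-149844000, which contains the downstream start, had 35.7% and 20.4% in KO, against 55.6% and 65.2% in WT, over 7 cytosines. Its adjusted p was 0.000531 in edgeR's test, and 0.110 without WT replicate 2, and the call was lost in no other setting that left out 1 library. No KO value reached a WT value in any of these windows.

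The dense stretch that holds the upstream Igf2 start was nearly free of methylation in either genotype. The window chr7:149844001-149845000 had 3.73% and 2.27% in KO, against 3.19% and 4.85% in WT, and the groups overlapped. The next window, chr7:149845001-149846000, with 131 cytosines, had 1.04% and 0.503% in KO, against 2.69% and 2.79% in WT; this passed the test (adjusted p = 1.93e-05, edgeR) at a difference of only -1.97 points. The window chr7:149846001-149847000 had 0.892% and 0.670% in KO, against 1.92% and 0.815% in WT, and did not pass it (adjusted p = 0.254, edgeR). The promoter of the upstream start itself had 2.28% and 1.09% in KO, against 1.18% and 3.06% in WT, which overlap. Its 15 measured cytosines lie at 149844902 to 149844959, at the far upstream end, while the start is at 149844709. The promoter of the downstream start had 29.9% and 29.1% in KO, against 42.7% and 54.9% in WT, from 67 to 117 calls over 4 cytosines. These 4 lie at 149843386 to 149843438, around the downstream start at 149843401. The measured parts of the 2 promoters thus differed in level in every library, but they lie at unlike distances from their starts.

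Further upstream of Igf2 a dense stretch of low level stood beside stretches of high level. The window chr7:149850001-149851000, with 50 cytosines, had 1.83% and 0.915% in KO, against 5.45% and 5.07% in WT (adjusted p = 0.000135, edgeR). Beside it, chr7:149851001-149852000 had 16.2% and 7.26% in KO, against 65.8% and 61.9% in WT, over 14 cytosines (adjusted p = 3.64e-11, edgeR). In this window the cytosine at 149851544 had the largest fall of any Igf2 cytosine with 10 or more calls in every library, with 20.8% and 5.88% in KO and 93.3% and 89.5% in WT. WT levels of its single cytosines ran from 33.1% to 91.4%, so a summed level of 63.8% in WT did not stand for cytosines that are all alike.

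The most methylated Igf2 window in KO lay 10.8 kb upstream of the upstream start by its middle, at chr7:149855001-149856000. It had 62.2% and 48.3% in KO, against 94.9% and 96.2% in WT, over 18 cytosines (adjusted p = 9.59e-14, edgeR). Among all windows with a WT level of 90 to 100% the median KO level was 30.0%, with quartiles at 22.7% and 38.3%, so both KO libraries stood above the upper quartile there. Its cytosine at 149855562 had 91.2% and 87.0% in KO and 93.3% and 97.6% in WT, the highest KO level of any Igf2 cytosine with 10 or more calls. The window with the downstream start, with a KO mean of 28.0%, also lay above the upper quartile of 19.7% for windows with a WT level of 60 to 70%. Each of the 20 tested windows of the 5 genes was set in its class of 10 points of WT level. By KO mean 9 lay above the upper quartile of the class, 7 lay between the quartiles and 4 lay below the lower one. In the class below 10% the median WT level over all windows was 0.631% and the upper KO quartile 0.767%. The 10 tested windows of that class had WT means of 1.05 to 6.25%, so it does not match them in WT level. Among the 10 whose WT mean was at least 10%, 3 lay above, these Igf2 windows and chr12:110688001-110689000 at Dlk1 (KO mean 6.74%, upper quartile 5.11%). In the same 10, 2 lay below: chr7:69496001-69497000 at Ndn (KO mean 14.9%, lower quartile 16.4%) and chr12:110692001-110693000 at Dlk1 (KO mean 1.32%, lower quartile 1.65%). No test of these places in the background was made. The 2 other Igf2 windows with cytosines held 1 and 2 of them and were not tested.

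Igf2r, the receptor that clears Igf2, was measured in 1 window, chr17:12962001-12963000, which contains its start. The paternal copy of this promoter is known to be methylated in differentiated tissues. Here 2 of 1645 and 3 of 1628 calls were methylated in KO, against 37 of 1837 and 44 of 1798 in WT (adjusted p = 3.96e-09, edgeR). The placed 300 bases alone had 0.156% and 0.214% in KO, against 2.26% and 2.69% in WT. Methylated calls were found at 5 of the 76 cytosines in the KO libraries and at 37 in the WT libraries, 14 of them in both WT libraries, and no cytosine had a WT mean above 10.0%. The largest fall among cytosines with 10 or more calls was at 12962697, with 0% of 15 and 23 calls in KO (up to 20.0% and 13.0% by the floor of 3 calls) and 3.57% and 13.6% in WT, so it was not detectable at this depth. The highest KO level was at 12962604, with 0% and 2.63% in KO and 0% and 2.44% in WT. At 39 cytosines (51.3%) no library had a methylated call, against 63.3% of all cytosines with a WT level below 20%. WT was thus far from the middle of the range at this promoter, and the rate of false methylated calls, which bears on levels this low, was not measured in these regions.

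The cell cycle inhibitor gene Cdkn1c had a methylated edge and an almost unmethylated body of CpGs. The window chr7:150644001-150645000 had 12.7% and 1.63% in KO, against 36.0% and 35.3% in WT, over 16 cytosines (adjusted p = 1.12e-08, edgeR). The KO libraries differed much here, with KO replicate 2 near 0, while the WT libraries lay within 1 point of each other. The cytosine at 150644881 had the largest fall, with 22.2% and 0% of 27 and 31 calls in KO and 60.9% and 64.7% in WT. The cytosine of the other strand of the same CpG, at 150644880, had the highest KO level of the region, 30.0% and 10.0%, with 65.1% and 61.8% in WT. The dense window chr7:150645001-150646000, with 79 cytosines, had 1.05% and 0.416% in KO, against 1.22% and 1.15% in WT, and did not pass the test (adjusted p = 0.133, edgeR, but 0.00775 without KO replicate 1). The window chr7:150646001-150647000 had 2.40% and 1.64% in KO, against 5.88% and 4.28% in WT (adjusted p = 0.0156, edgeR, but 0.271 without WT replicate 1 and 0.114 without WT replicate 2). The window chr7:150647001-150648000 had 0 methylated calls of 18 and 15 in KO, which allows levels of up to 16.7% and 20.0% from a floor of 3 calls, and 12.5% and 0% of 24 and 30 calls in WT, so nothing could be told there. At 150648010 and 150648124, too few for a tested window, the summed level was 16.8% and 13.3% in KO, against 41.2% and 29.2% in WT.

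Dlk1 had its highest WT methylation near the end of the measured region. The window chr12:110698001-110699000 had 10.7% and 4.20% in KO, against 53.8% and 58.7% in WT, over 23 cytosines (adjusted p = 2.33e-12, edgeR). Of these 23 cytosines 13 had a WT level between 30 and 70%. At 21 of the 23 each KO value was under each WT value. The share was 44.6% over all cytosines and 95.3% over those with a WT level of 20 to 80%. The dense window chr12:110691001-110692000, with 80 cytosines, had 0.161% and 0.238% in KO, against 0.827% and 1.28% in WT; it passed the test (adjusted p = 0.00123, edgeR, and 0.071 without WT replicate 2) at a difference of -0.853 points. Beside it, chr12:110692001-110693000 had 1.39% and 1.25% in KO, against 7.38% and 16.3% in WT. Its adjusted p was 0.000398 in edgeR's test and 0.0827 without WT replicate 2, which had only 86 calls there and the higher level. The window chr12:110688001-110689000 had 7.02% and 6.46% in KO, against 13.7% and 15.5% in WT (adjusted p = 0.0147, edgeR, but 0.162 without WT replicate 1 and 0.238 without WT replicate 2), and KO kept 46.1% of the WT level. With a minimum of 20 calls per cytosine its difference was -14.9 points, against -7.87, and it was called (adjusted p = 0.00363, edgeR). That window also holds the Dlk1 cytosines named by the rule for single sites, which takes only those with 10 or more calls in every library. At 110688615 the level was 6.67% and 4.00% in KO and 25.9% and 53.3% in WT, and at 110688601 it was 33.3% and 16.0% in KO and 33.3% and 46.7% in WT. Larger falls were left out by this rule. With 9 calls in WT replicate 2, the cytosine at 110698150 had 20.0% and 6.67% in KO and 80.0% and 100% in WT.

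Ndn was covered by few calls, and no Ndn cytosine had 10 or more in every library. Its window of 24 cytosines, chr7:69493001-69494000, had 2.56% and 0.599% in KO, against 3.85% and 1.19% in WT, with overlap between the groups (adjusted p = 0.357, edgeR). The other window, chr7:69496001-69497000, had 19.2% and 10.6% in KO, against 81.0% and 79.8% in WT, over 7 cytosines and 52 to 104 calls per library (adjusted p = 3.24e-11, edgeR). Each KO value was under each WT value at 7 of these 7 cytosines, and at 1 of the 24 in the dense window. Over all cytosines the share was 99.2% at a WT level of 80% or more, 95.3% at 20 to 80% and 7.95% below 20%.

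**Figure D3:**
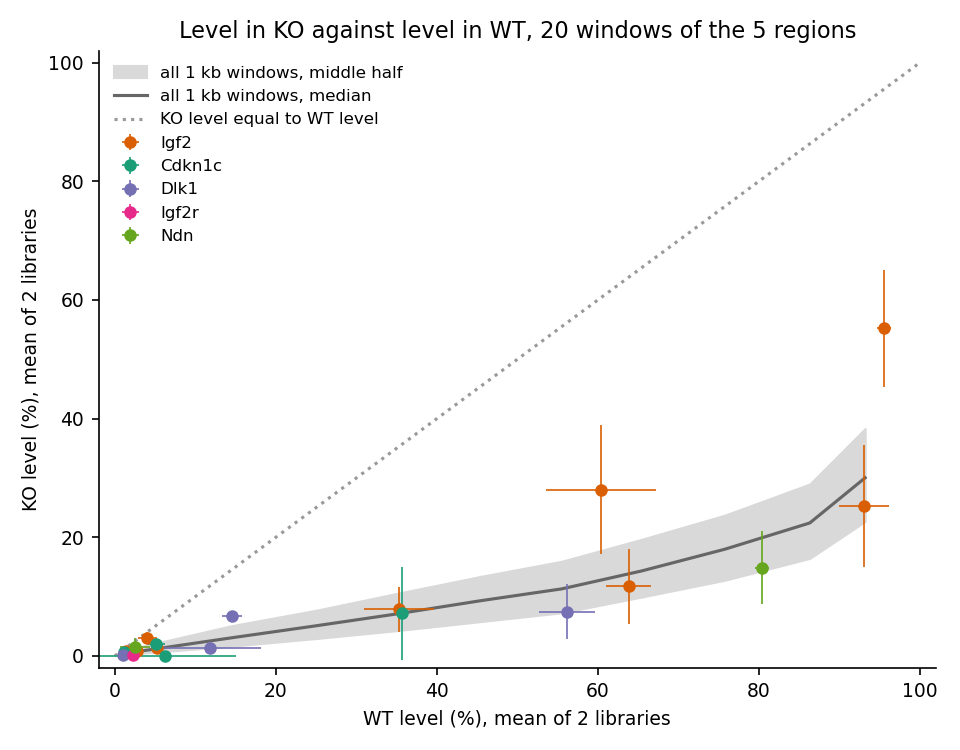
KO level against WT level of the 20 tested windows (means of 2 libraries, bars are SD), with the median and quartiles of all 155252 windows in steps of 10 points of WT level. Windows with a WT level above 30% lie far below the dotted line of equal levels. By KO mean 9 of the 20 lie above the upper quartile of their 10-point class of WT level. Of these, 6 are in the class under 10%, where the median WT level of all windows was 0.631%.

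Single cytosines were classed by their WT level. Each KO value was under each WT value at 173 of the 722 cytosines, against 44.6% of all 2468166 cytosines, and above it at 8 (0.442% of all). At 288 of the 722 (39.9%) no library had a methylated call, against 37.5% of all cytosines. Among cytosines with a WT level of 80% or more the count was 29 of 32 (99.2% of all such cytosines), among those at 20 to 80% it was 79 of 83 (95.3%), and below 20% it was 65 of 607 (7.95%). In these classes the members' median KO levels were 39.6%, 9.22% and 0%, against 26.1%, 9.17% and 0% over all cytosines. Of the 32 in the top class 28 lay at Igf2. Neighbouring cytosines share reads and are not independent. With a minimum of 20 calls 78 of 250 cytosines were below (31.2%, against 42.5% of all), and without WT replicate 2 the count was 266 of 722 (36.8%, against 50.5% of all).

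The promoters of other genes of the same domains were looked up in the same way. Of 23 such genes 18 had a sequence in the table, and 4 promoters met a single place on their chromosome. Meg3, a maternally expressed noncoding RNA beside Dlk1 whose promoter carries secondary methylation on the paternal copy, was placed at chr12:110778956-110779255 on the plus strand, with all 22 listed cytosines on CpGs. It is shown because it was the most methylated promoter placed, and all of its 13 CpGs (capitals) were measured.
Meg3: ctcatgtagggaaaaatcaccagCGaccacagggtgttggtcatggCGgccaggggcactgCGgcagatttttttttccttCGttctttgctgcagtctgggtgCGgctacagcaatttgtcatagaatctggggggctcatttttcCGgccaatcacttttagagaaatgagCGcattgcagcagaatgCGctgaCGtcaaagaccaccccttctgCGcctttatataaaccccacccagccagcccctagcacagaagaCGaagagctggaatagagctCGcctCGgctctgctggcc

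Meg3 had 9.0% and 7.11% in KO, against 81.1% and 79.1% in WT, a fall of 72.0 points (adjusted p = 1.87e-21, edgeR), and each KO value was under each WT value at 22 of 22 cytosines. The WT level was well above the middle of the range at every cytosine, from 72.2% to 91.7%. Over all cytosines, each KO value was under each WT value at 95.3% of those with a WT level of 20 to 80%. At a WT level of 80% or more this share was 99.2%. Tssc4, which lies between Igf2 and Cdkn1c on chromosome 7, had 0.0835% and 0.172% in KO and 0.148% and 0.0891% in WT (adjusted p = 0.964, edgeR). Mkrn3 and Peg12 lie in the domain of Ndn and are expressed from the paternal copy. Mkrn3 had 0 of 543 and 0 of 450 methylated calls in KO, which allows up to 0.552% and 0.667%, and 4 of 647 and 1 of 482 in WT (adjusted p = 0.0238, edgeR). Peg12 had 0 of 161 and 0 of 159 in KO, which allows up to 1.86% and 1.89%, and 0 of 267 and 2 of 197 in WT (adjusted p = 0.205, edgeR). Of the 4 partner promoters, Meg3 was thus the only one past 10 points.

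**Figure D4:**
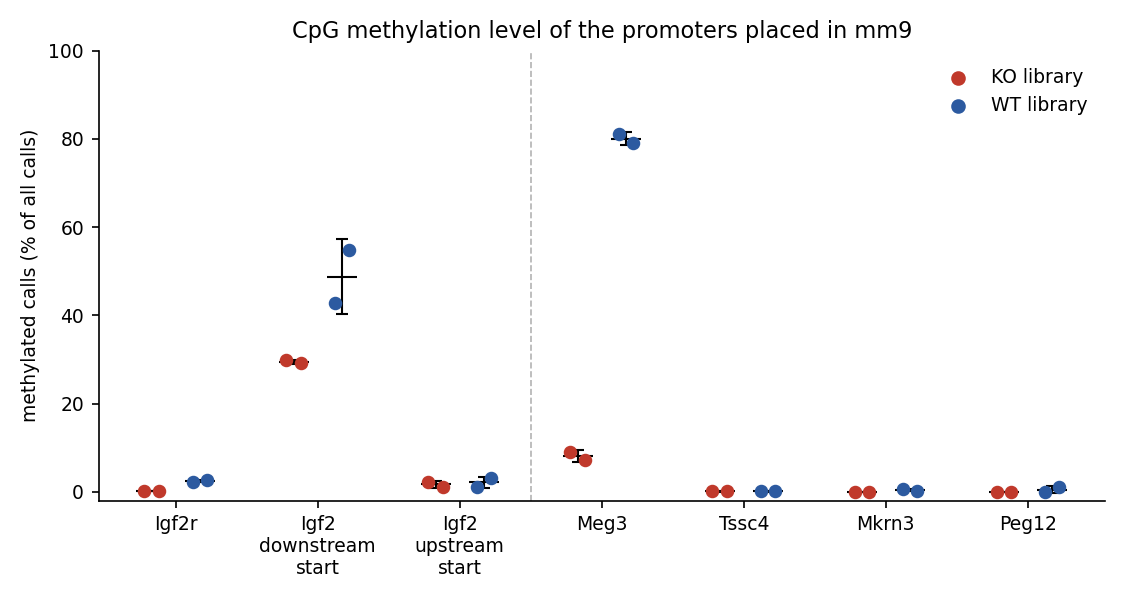
Share of calls read as methylated in the 300 bases of each placed promoter, for every library (dots, KO left of WT), with mean and SD. Left of the dashed line are the members and right of it the partner genes; Meg3 (KO mean 8.06%, WT mean 80.1%) and the downstream Igf2 start (29.5% and 48.8%) are the promoters with methylation above 10%.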

How the data were processed

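DNA of 4 ES cell libraries (2 KO, 2 WT, from the sample titles) was cut with MspI, bisulfite converted and sequenced, per the labels' protocols. The authors deposited, per cytosine of a CpG, the methylation percent and the counts of methylated and unmethylated calls. The deposited counts are whole and not normalised, and were used here. Bismark 0.10.1, Trim Galore and mm9 appear in the submitters' processing notes, with no settings. How reads were trimmed, filtered or freed of duplicates is not given in the sources used here, so intervals and floors of 3 calls cover counting error only. Fragment ends were filled in after MspI, per the labels' protocols.

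Cytosines with 5 or more calls in every library were kept. Regions, promoters and 1 kb windows with 3 or more cytosines were tested together with edgeR 4.0.16 (quasi-likelihood, R 4.3.3; terms for each library, for the call type, and for the call type within KO), adjusted over all rows. Permutation tests used scipy 1.17.1. The test was first tested on simulated data. A partner promoter needed 10 or more listed cytosines, all on CpGs, at 1 place of its chromosome. A member's needed 4 or more inside its region and at least 2 times the next place, a rule chosen after seeing the data. No mm9 annotation was used, so windows were not assigned to exons or named methylated regions. Named were all member windows, all partner promoters placed, and per region the cytosines with the largest fall and the highest KO level among those with 10 or more calls. The members and lists were chosen with earlier results of these data known.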

Additional observations from a re-analysis of the deposited data

How the results depend on the processing

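The 5 regions had lower levels in KO under every setting that could be computed without centring, each library left out included, and the largest adjusted p was 0.0148 (Igf2, limma 3.58.1 on logit methylation). With no minimum difference Igf2 (-9.47 points), Cdkn1c (-5.15), Dlk1 (-7.55) and Igf2r (-2.08) were called too, and with a minimum of 25 points Ndn (-24.8) was not. Leaving out 1 library gave -11.1 to -7.81 points at Igf2, past 10 points only without KO replicate 1. With each cytosine weighing the same the differences were -9.87 at Dlk1, -1.45 at Igf2r and -15.7 at Ndn. Centred on the library-wide shift (limma, logit scale), the values were 2.04 at Igf2, 1.67 at Cdkn1c, 1.78 at Dlk1, 0.94 at Ndn and 0.56 at Igf2r, all above the shift, with adjusted p 0.391 at Igf2r; by its construction this compares with other windows, not with WT levels. Windows of the regions called lower numbered 5 of 13 at a minimum of 20 calls (68.2% of all windows), 15 with no minimum difference and 0 after centring, where 11 lay above the shift; single libraries left out gave 7 to 9 of 20 (76.8 to 80.2% of all). Cytosines below WT numbered 78 of 250 at a minimum of 20 calls (42.5% of all), and 180 to 266 of 722 with 1 library left out (45.2 to 50.5% of all). At that minimum the difference at Igf2 chr7:149850001-149851000 was -6.56 points and at Dlk1 chr12:110691001-110692000 -1.47. Ndn gave no value at a minimum of 10 or 20 calls. The labels do not say whether equal replicate numbers share a culture or batch, and they were not treated as pairs. The differences between replicates of KO and of WT had a correlation of -0.00579 over windows. A block for the replicate number enters the test only, so it cannot change the differences of levels. With it the adjusted p (edgeR) was 2.98e-06 at Igf2 and 1.43e-06 at Ndn, and 9 windows were called lower (79.8% of all windows). Median depth per cytosine and library was 5 to 12 calls at Igf2r and 7 to 13 at Ndn, and 13 to 32 at the other genes.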

Other observations

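CpGs read on both strands were compared inside the regions. There were 260 such pairs, 37 of them with a WT level of 20% or more, and in these the median gap between the strands was 5.39 points in KO and 8.43 in WT. The widest gap in WT, 66 points, was at Cdkn1c. The cytosine at 150644823 had 25% and 10.3% in KO and 74.4% and 57.6% in WT, while the cytosine of the other strand at 150644824 had 0 methylated calls of 26 and 25 in KO and of 22 and 31 in WT. The cause of this gap was not tested.

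The KO libraries differed from each other more than the WT libraries did. Over cytosines of the 5 regions with enough calls the chi-square per degree of freedom was 2.12 for the KO pair (113 cytosines) and 1.15 for the WT pair (191 cytosines). The 113 and the 191 cytosines were picked for each pair by its own counts, so they are not the same set. Over all 722 cytosines, KO replicate 1 was the higher KO library at 167 and KO replicate 2 at 77. For the WT pair these counts were 199 and 189. At Cdkn1c the counts were 37 and 9 for the KO pair, and 49 and 37 for the WT pair.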
